A study of Mus musculus with 45 samples.

Results

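Mouse embryonic stem cells that lose SOX2 and cells that lose OCT4 were compared after 24 h of depletion, to ask at which open chromatin regions (OCRs) the responses to the loss of these partner factors diverge. The comparison is a difference of changes, the change from untreated (NT) to 24 h of dTAG-13 in the SOX2-FKBP line minus the same change in the OCT4-FKBP line. It rests on 8 of the 45 samples of the series, 2 libraries for each line and time. By the labels the SOX2-FKBP cells are of the E14 cell line (IB10 cells in the study's methods, of 129/Ola origin) and the OCT4-FKBP cells of the V6.5 cell line, so factor and parental line cannot be told apart, and each change was therefore measured within its own line. In each line the named factor carries an FKBP tag, which the molecule dTAG-13, given at 500 nM, directs to the proteasome. NT cells received the solvent DMSO. By the labels the cells grew on gelatin in serum-free medium with LIF and the inhibitors of the 2i mixture. The methods give duplicates for OCT4 depletion, and duplicates plus an independent clone for SOX2 depletion. The labels do not tell which SOX2-FKBP libraries are of which clone, or whether duplicates are separate cultures, so the tests measure the spread between these libraries, which may be technical.

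Accessibility was measured by ATACseq, in which the transposase Tn5 cuts and tags DNA that is not packed away, and the number of fragments over a peak is read as its accessibility. Of 184964 peaks, 166430 passed the filter on low counts and were tested. The 4 NT libraries held 6479369 to 17575631 counts and the 24 h libraries 6378962 to 9624818, of which 2.19% to 6.65% were mitochondrial. Chromosomes 6 and 8 hold different shares of the counts in the lines (chromosome 8 between 5.30% and 5.45% in the 4 SOX2-FKBP libraries and between 7.66% and 7.94% in the 4 OCT4-FKBP libraries), and OCT4-FKBP replicate 2 held more of chromosome 6 (7.71% to 7.76%) than replicate 1 (6.49% to 6.53%) at both times. These shares cancel in a change within a line. The levels of the tagged proteins are not part of the data used here. In a population of cells, fewer cells with an open peak and a less open peak in each cell cannot be told apart.

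SOX2 is an HMG-box factor that reads a short SOX site, and OCT4, the product of Pou5f1, is a POU factor that reads the octamer. In embryonic stem cells they bind many enhancers together on a composite site made of a SOX site next to a POU site, and both can open closed chromatin. Loss of either factor lets the cells leave naive pluripotency, so at 24 h direct and later effects are measured together.

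The sequences below are from mm10, plus strand, 200 bases around the peak summit, with matches to the SOX letters (CATTGT or CTTTGT) and to the octamer letters (ATGCNAAT) on either strand in capitals. The first set shows peaks whose change at 24 h was lower after SOX2 depletion, at chr19:9940969-9941168 near Fth1, at chr9:97477112-97477311 in an intron of Clstn2, at chr2:168769362-168769561 upstream of Sall4 and at chr17:35490449-35490648 upstream of Pou5f1. They are shown because SOX matches stand in each of them and octamer matches in none.
Fth1 peak: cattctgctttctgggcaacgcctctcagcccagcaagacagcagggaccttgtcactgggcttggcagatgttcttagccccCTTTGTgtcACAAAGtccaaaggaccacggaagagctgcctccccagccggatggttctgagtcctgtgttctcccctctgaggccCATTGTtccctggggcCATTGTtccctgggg
Clstn2 peak: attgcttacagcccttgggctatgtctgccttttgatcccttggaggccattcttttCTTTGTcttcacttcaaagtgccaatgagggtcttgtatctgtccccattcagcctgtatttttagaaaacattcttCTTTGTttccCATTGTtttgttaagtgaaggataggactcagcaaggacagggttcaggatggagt
Sall4 peak: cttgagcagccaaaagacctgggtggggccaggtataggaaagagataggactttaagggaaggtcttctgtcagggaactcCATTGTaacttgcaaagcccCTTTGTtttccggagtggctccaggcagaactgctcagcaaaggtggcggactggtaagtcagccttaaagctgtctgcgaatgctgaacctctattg
Pou5f1 peak: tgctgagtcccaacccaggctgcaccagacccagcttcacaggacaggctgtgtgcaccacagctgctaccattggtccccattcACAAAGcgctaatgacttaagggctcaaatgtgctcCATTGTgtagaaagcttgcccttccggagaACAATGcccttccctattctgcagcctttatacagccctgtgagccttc

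The next set shows peaks whose change was lower after OCT4 depletion, at chr14:57732785-57732984 in an intron of Lats2, at chr4:111468513-111468712 in an intron of Agbl4, at chr6:122624570-122624769 upstream of Dppa3, at chr12:86478938-86479137 in an intron of Esrrb and at chr5:111681452-111681651 between genes. They carry octamers without a SOX match in the bases shown. They do not stand for all peaks of this direction, of which 22.5% hold an octamer within 300 bp around the summit.
Lats2 peak: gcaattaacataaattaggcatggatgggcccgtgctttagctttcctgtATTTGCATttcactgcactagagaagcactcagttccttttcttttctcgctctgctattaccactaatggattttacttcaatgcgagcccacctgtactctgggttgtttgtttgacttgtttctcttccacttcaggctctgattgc
Agbl4 peak: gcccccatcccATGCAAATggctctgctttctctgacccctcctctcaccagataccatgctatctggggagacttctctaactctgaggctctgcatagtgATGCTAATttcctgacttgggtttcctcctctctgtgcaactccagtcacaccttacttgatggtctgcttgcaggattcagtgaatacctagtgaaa
Dppa3 peak: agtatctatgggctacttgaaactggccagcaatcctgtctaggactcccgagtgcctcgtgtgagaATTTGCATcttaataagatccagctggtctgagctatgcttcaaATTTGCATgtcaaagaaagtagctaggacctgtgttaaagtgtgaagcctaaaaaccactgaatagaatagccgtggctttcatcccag
Esrrb peak: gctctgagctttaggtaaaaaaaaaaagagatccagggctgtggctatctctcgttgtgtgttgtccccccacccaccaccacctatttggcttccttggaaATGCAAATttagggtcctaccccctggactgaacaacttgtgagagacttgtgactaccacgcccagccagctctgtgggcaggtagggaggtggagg
Intergenic peak of chromosome 5: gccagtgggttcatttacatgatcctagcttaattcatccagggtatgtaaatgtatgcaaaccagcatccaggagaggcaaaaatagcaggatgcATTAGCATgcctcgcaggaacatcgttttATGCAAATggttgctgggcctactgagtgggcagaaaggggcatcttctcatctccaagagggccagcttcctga

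The last set shows peaks at which the lines parted between 2 and 24 h, at chr5:127136480-127136679 between genes and at chr15:76186960-76187159 in an intron of Plec. No SOX or octamer match stands in the bases shown. Other peaks named below for the same late difference hold such matches, a SOX match at Gm41031 and an octamer at Npepps.
Tmem132c-side peak: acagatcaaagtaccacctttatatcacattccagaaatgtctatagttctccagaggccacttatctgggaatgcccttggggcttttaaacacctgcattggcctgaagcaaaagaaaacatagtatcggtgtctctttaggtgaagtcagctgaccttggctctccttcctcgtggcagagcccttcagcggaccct
Plec peak: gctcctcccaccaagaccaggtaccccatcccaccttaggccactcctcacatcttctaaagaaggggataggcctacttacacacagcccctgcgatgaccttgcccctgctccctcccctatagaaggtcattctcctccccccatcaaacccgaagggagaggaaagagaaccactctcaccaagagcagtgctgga

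The lines differed in their 24 h change at 4608 OCRs. At 2774 peaks (1.67% of those tested) the change was lower after SOX2 depletion and at 1834 (1.1%) it was lower after OCT4 depletion (edgeR's quasi-likelihood test on the difference of changes, adjusted p threshold 0.05). Within the lines, 18076 peaks (10.9%) were lost and 8100 (4.87%) gained 24 h after SOX2 depletion, and 21078 (12.7%) were lost and 18027 (10.8%) gained 24 h after OCT4 depletion. The gains after SOX2 depletion were 2511 to 5035 without any 1 of the 4 SOX2-FKBP libraries of NT and 24 h, and after OCT4 depletion 12184 losses and 8772 gains were left without OCT4-FKBP 24 h replicate 1 and 9237 gains without its NT replicate 2. Losses outnumbered gains after OCT4 depletion with TMM factors, and gains outnumbered losses with DESeq2 size factors in edgeR (21014 against 19374) and with DESeq2 (17242 against 15634). Lost and gained mean here a level below or above NT past the same threshold. A peak that passed in one line and not in the other is not counted as different between the lines unless the difference itself passed.

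The calls within each line were divided differently in the 2 directions. Of the 2774 peaks lower after SOX2 depletion, 1109 were lost after SOX2 depletion with no call after OCT4 depletion, and 1024 were gained after OCT4 depletion with no call after SOX2 depletion. A further 304 were lost after SOX2 and gained after OCT4 depletion, 261 were lost in both lines and 41 gained in both, and 35 had no call in either line. Of the 1834 peaks lower after OCT4 depletion, 1204 were lost after OCT4 depletion alone, 283 in both lines, 257 were gained after SOX2 depletion alone and 61 were gained after SOX2 and lost after OCT4 depletion. The remaining 29 had no call in either line (28) or a gain in both (1). Thus gains after OCT4 depletion stood in 1369 of the 2774 peaks (49.4%), and gains after SOX2 depletion in 319 of the 1834 (17.4%). Over all tested peaks, gains were called at 10.8% after OCT4 and at 4.87% after SOX2 depletion. The shares of 49.4% and 17.4% describe peaks that were chosen on the same changes.

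**Figure D1:**
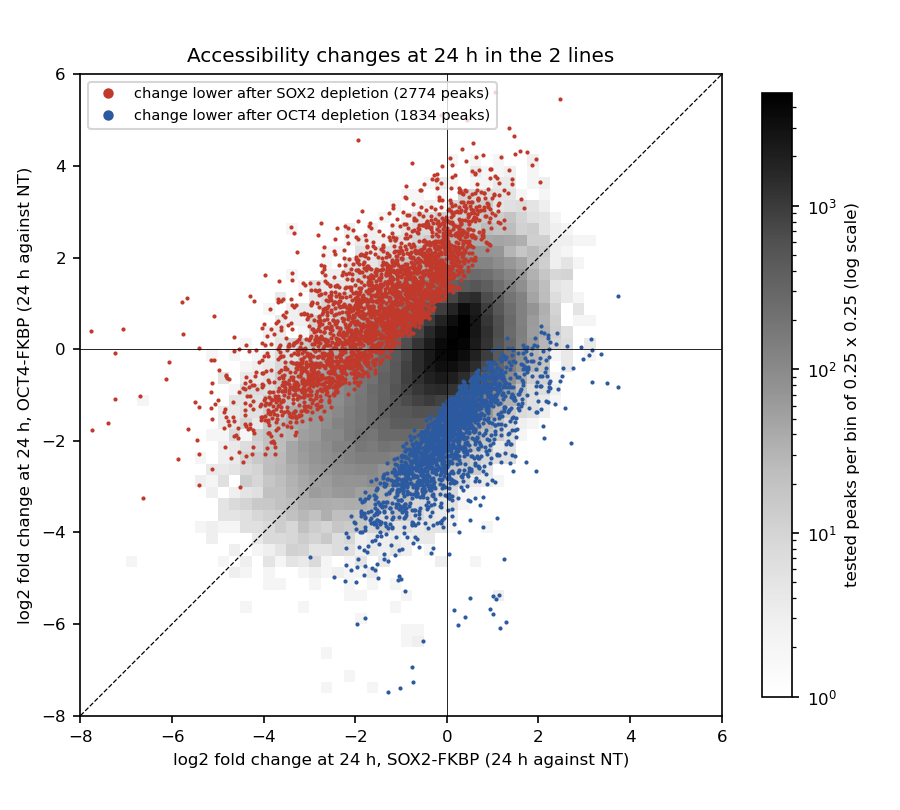
Log2 fold change from NT to 24 h in SOX2-FKBP (x axis) against OCT4-FKBP (y axis). Shading counts all tested peaks per bin on a log scale, and points are the 2774 peaks with a lower change after SOX2 depletion and the 1834 with a lower change after OCT4 depletion. The called peaks lie off the diagonal by the way they were called, the first group reaching above 0 on the y axis, and 2 peaks fall outside the axes.

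The balance between the directions depended on the scaling and on the filter. With total counts in place of TMM factors, which scale libraries by their typical peak, 1889 peaks were lower after SOX2 and 1973 after OCT4 depletion, so that the share of calls lower after SOX2 depletion fell from 60.2% to 48.9%, and the median difference of all peaks moved from 0.02 to 0.11 on the log2 scale. With totals outside the mitochondrial peaks the counts were 2194 and 2212 (49.8%). When each library had to hold 10 counts or more (33328 peaks) they were 614 and 1050 (36.9%). A term that pairs libraries with the same replicate number gave 3969 and 2930 peaks. With 1 library left out, the peaks lower after SOX2 depletion were 1386 without SOX2-FKBP NT replicate 1, 1614 and 1583 without either 24 h library of that line and 1417 without OCT4-FKBP 24 h replicate 2. Those lower after OCT4 depletion were 758 and 944 without either NT library of SOX2-FKBP, 717 without its 24 h replicate 1, 1075 without OCT4-FKBP NT replicate 2 and 828 and 1212 without either 24 h library of OCT4-FKBP.

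Among the peaks lower after SOX2 depletion, the 10 with the largest differences at 24 h lay between genes or in introns, apart from 1 in the UTR of Fzd8, a Wnt receptor gene. Their log2 differences were -6.50 to -4.87. The named peaks had a group mean of 50 normalized counts or more in at least 1 group and had both SOX2-FKBP libraries below both OCT4-FKBP libraries in their change, as 1874 peaks did. All but the Fzd8 peak hold at least 1 SOX match in the 300 bp around the summit, and 1 of the 10 an octamer.

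An intronic peak of Clstn2, a gene for a synaptic calsyntenin, was lost after SOX2 depletion, with no call after OCT4 depletion. It spans chr9:97476418-97477895 and holds 3 SOX matches. Its normalized counts were 220 and 254 in the SOX2-FKBP NT libraries and 4.86 and 3.69 at 24 h, against 356 and 307 in OCT4-FKBP NT cells and 409 and 422 at 24 h. The 24 h libraries of SOX2-FKBP stood far below every other library. The log2 difference of changes was -6.08 (standard error 0.40, edgeR adjusted p = 3.46e-13), made of -5.75 after SOX2 depletion and 0.33 after OCT4 depletion. It already differed at 2 h (-3.01) and grew further between 2 and 24 h (-3.07, edgeR adjusted p = 0.000975).

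Other peaks in this direction were gained in OCT4-depleted cells. At chr19:9940933-9941269, 39.5 kb upstream of Fth1, the ferritin heavy chain gene, the counts were 3.35 and 9.50 in SOX2-FKBP NT libraries and 1.94 and 0.92 at 24 h, and 3.12 and 1.60 in OCT4-FKBP NT libraries and 46.4 and 64.9 at 24 h. This peak with 6 SOX matches was nearly closed in both lines at NT and opened in the OCT4-FKBP line alone (log2 difference -6.50, standard error 1.08, edgeR adjusted p = 0.00022). On its raw counts the SOX2-FKBP level at 24 h was 24.9% of NT (95% exact interval 4.46% to 94.2%, counting error only), so the SOX2 part of the difference rests on few fragments.

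At chr2:23998463-23999628, 49.8 kb downstream of Hnmt, a histamine-inactivating enzyme gene, the directions were opposite. Counts fell from 54.5 and 63.8 to 3.88 and 7.38 in SOX2-FKBP and rose from 31.2 and 27.7 to 158 and 182 in OCT4-FKBP. The libraries of each line did not overlap between NT and 24 h (log2 changes -3.34 and 2.53, both past the threshold, and a difference of -5.88). The peak also rose in the NANOG-FKBP line (log2 change 1.77, edgeR adjusted p = 0.000433), from 25.4 and 17.4 to 85.0, 47.4 and 74.9, so its gain was seen in that line too.

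Peaks lower after OCT4 depletion had smaller differences. The 10 largest, out of 1460 that met the rule, ranged from 3.57 to 4.66 on the log2 scale, and 8 of them lay in introns. An octamer stood in 5 of the 10 within 300 bp of sequence and a SOX match in 3. The peak in an intron of Lats2, a kinase gene of the Hippo pathway, had 249 and 269 normalized counts in SOX2-FKBP NT libraries and 227 and 192 at 24 h. In OCT4-FKBP it fell from 329 and 287 to 13 and 17. The SOX2-FKBP libraries of NT and 24 h lay close together, and the OCT4-FKBP libraries lay far apart (log2 difference 4.05, standard error 0.44, edgeR adjusted p = 4.13e-07). This peak, at chr14:57732416-57733285, was already at 25.7 and 28.0 after 2 h without OCT4.

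A peak in an intron of Dlgap3, a postsynaptic scaffold gene, fell more slowly. Its counts were 192 and 167 in SOX2-FKBP NT libraries and 157 and 127 at 24 h. In OCT4-FKBP they were 128 and 170 before treatment, 81.7 and 84.0 after 2 h, 33.7 and 46.3 after 6 h and 8.70 and 4.63 after 24 h. The loss thus went on over the whole course, and the difference between the lines was 4.11 at 24 h (standard error 0.47, edgeR adjusted p = 7.5e-07). It also grew between 2 and 24 h (2.94, edgeR adjusted p = 0.00308). This peak, at chr4:127174330-127175162, holds no SOX and no octamer match around its summit.

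Introns of Sptbn1, a spectrin gene, Agbl4, a gene for a tubulin-modifying enzyme, and Hmgb3, a gene for a chromatin protein of the HMG-box class, held 3 further peaks of this kind. After OCT4 depletion they kept 2, 1 and 1 raw counts over the libraries of 24 h, against 75, 159 and 173 at NT. The Agbl4 and Hmgb3 peaks were also lost after SOX2 depletion, to a lesser degree (log2 changes -1.79 and -1.96). The call at Agbl4 (4.08, edgeR adjusted p = 0.0157) ended without OCT4-FKBP 24 h replicate 1 (adjusted p = 0.179), without replicate 2 (0.0514) or without SOX2-FKBP 24 h replicate 1 (0.144). The call at Hmgb3 (4.05, edgeR adjusted p = 0.00947) ended without OCT4-FKBP 24 h replicate 2 (adjusted p = 0.113), and DESeq2 called neither of these peaks.

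**Figure D2:**
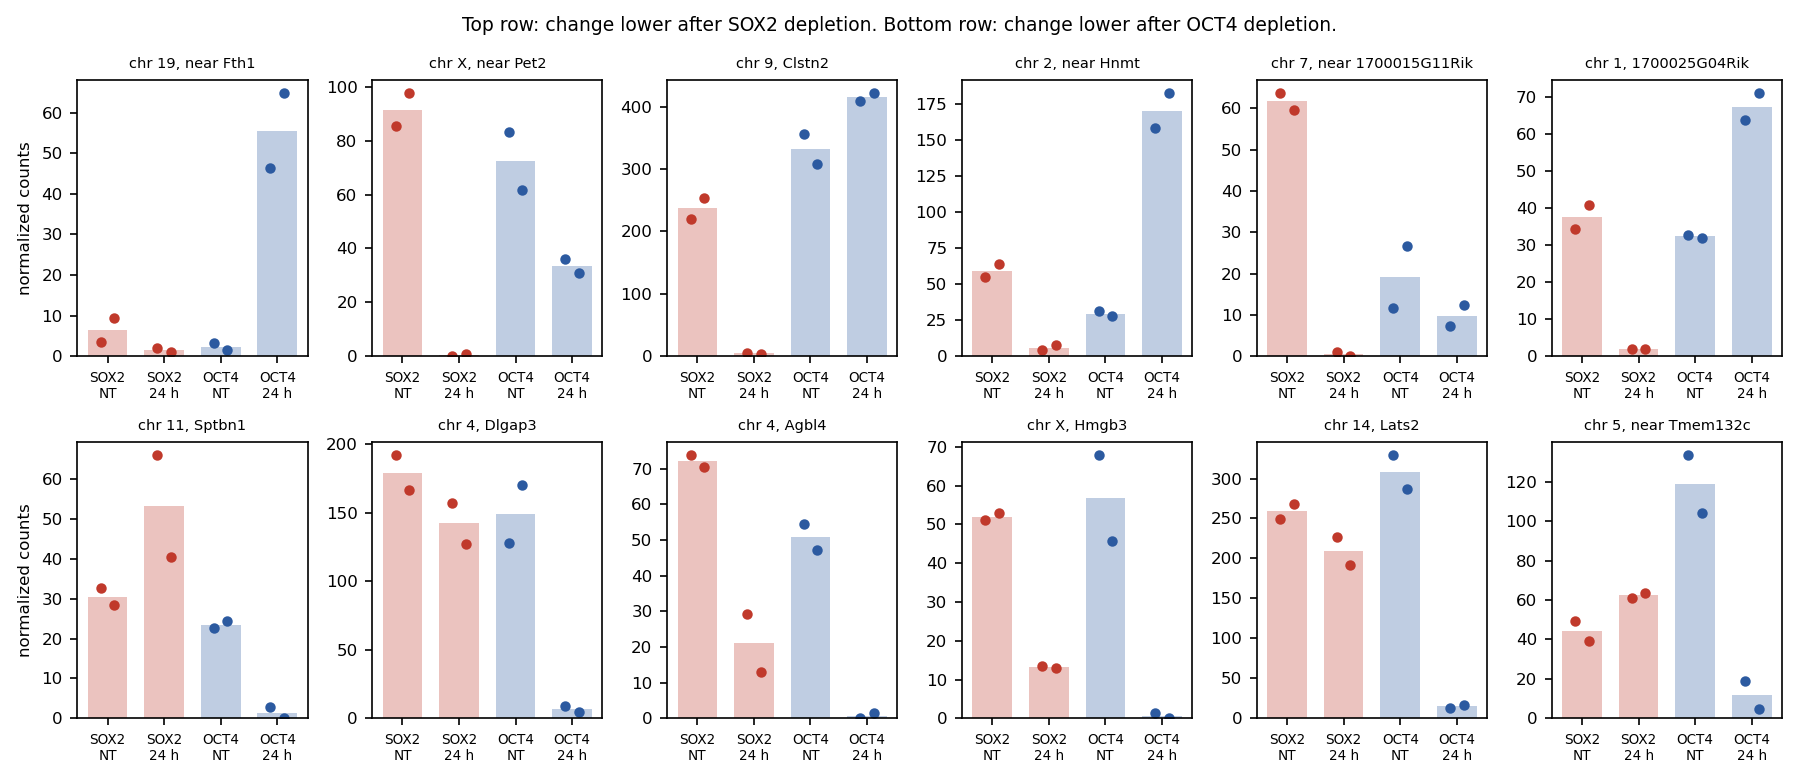
Normalized counts (y axis, from 0) in the 8 libraries at peaks with the largest differences of changes, with 1 point per library and bars up to the group mean. In the top row the 24 h level is near 0 in SOX2-FKBP while OCT4-FKBP rises, as near Fth1, or falls less, and in the bottom row the OCT4-FKBP level is low at 24 h, as at Lats2 with 13 and 17 against 227 and 192.

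Peaks gained after SOX2 and lost after OCT4 depletion were rarer than the reverse, 61 (0.0367% of tested peaks) against 304 (0.183%). Gains of any kind were also rarer after SOX2 depletion, at 4.87% of tested peaks against 10.8% after OCT4 depletion. Both counts of gains moved with single libraries, as given above. The largest difference among the 61, at chr5:111681127-111682021 between genes, was at a peak that holds 2 octamers. This peak rose from 21.8 and 21.7 to 66.0 and 59.9 in SOX2-FKBP and fell from 19.5 and 20.7 to 8.70 and 3.09 in OCT4-FKBP. The NT libraries of the lines stood level and the 24 h libraries on opposite sides of them (log2 difference 3.26, standard error 0.67, edgeR adjusted p = 0.00288). Introns of Upp2, a uridine phosphorylase gene, Tmem108, Arrb1, a beta-arrestin gene, and Ptpn21, a tyrosine phosphatase gene, held the next 4, with differences of 2.84 to 2.98. Their OCT4-FKBP levels at 24 h were between 0 and 17 normalized counts, so these losses rest on few fragments. Without OCT4-FKBP 24 h replicate 2 the calls at Upp2, Tmem108 and Arrb1 ended (edgeR adjusted p = 0.136, 0.105 and 0.0943). The calls at Upp2 and Tmem108 also ended without OCT4-FKBP NT replicate 2 (0.0741 and 0.112), that at Tmem108 without SOX2-FKBP NT replicate 1 (0.0828) and that at Arrb1 without SOX2-FKBP 24 h replicate 1 (0.0663).

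The letters under the peaks differed with the direction. A SOX match within 300 bp around the summit stood in 65.7% of the peaks lower after SOX2 depletion, in 31.3% of those lower after OCT4 depletion and in 34.8% of all tested peaks. An octamer stood in 2.16%, 22.5% and 4.87%. The composite letters TTGTNATGC, which overlap the SOX letters in part, stood in 2.63%, 1.96% and 1.28%. The SOX share was thus raised on one side and the octamer share on the other, while the composite share was above that of all tested peaks on both. Over the whole peak the SOX shares were 85.9%, 67.0% and 61.8%, the octamer shares 7.07%, 32.6% and 9.70% and the composite shares 5.05%, 3.71% and 2.57%. The sets also differ in width, with median widths of 828.5 bp, 969.5 bp and 694 bp.

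Grouped by their letters alone, without regard to any change, the peaks also differed in their shares of calls. In the 53490 peaks with a SOX match and neither octamer nor composite, 3.20% were lower after SOX2 depletion and 0.79% after OCT4 depletion. In the 4697 peaks with an octamer and neither of the others, 0.38% and 5.77% were. The 3164 peaks with both a SOX match and an octamer, but not the composite, stood nearer to the octamer peaks, with 1.26% and 4.17%. In the 2135 peaks with the composite, 3.42% and 1.69% were, and in the 102798 with none, 0.90% and 0.95%.

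The composite peaks closed in both lines. Their median log2 change at 24 h was -1.24 and -1.14 in the SOX2-FKBP libraries and -1.22 and -1.08 in the OCT4-FKBP libraries, so the lines overlapped. Octamer peaks had medians of -0.07 and -0.12 in SOX2-FKBP and -0.59 and -0.48 in OCT4-FKBP, which did not overlap. With 2 libraries against 2, an exact permutation test cannot go below p = 0.333, so these medians were not tested. SOX-only peaks had medians near -0.1 in both lines (-0.11 and -0.11 against -0.14 and -0.05), and their larger share of calls came from a minority of the peaks.

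**Figure D3:**
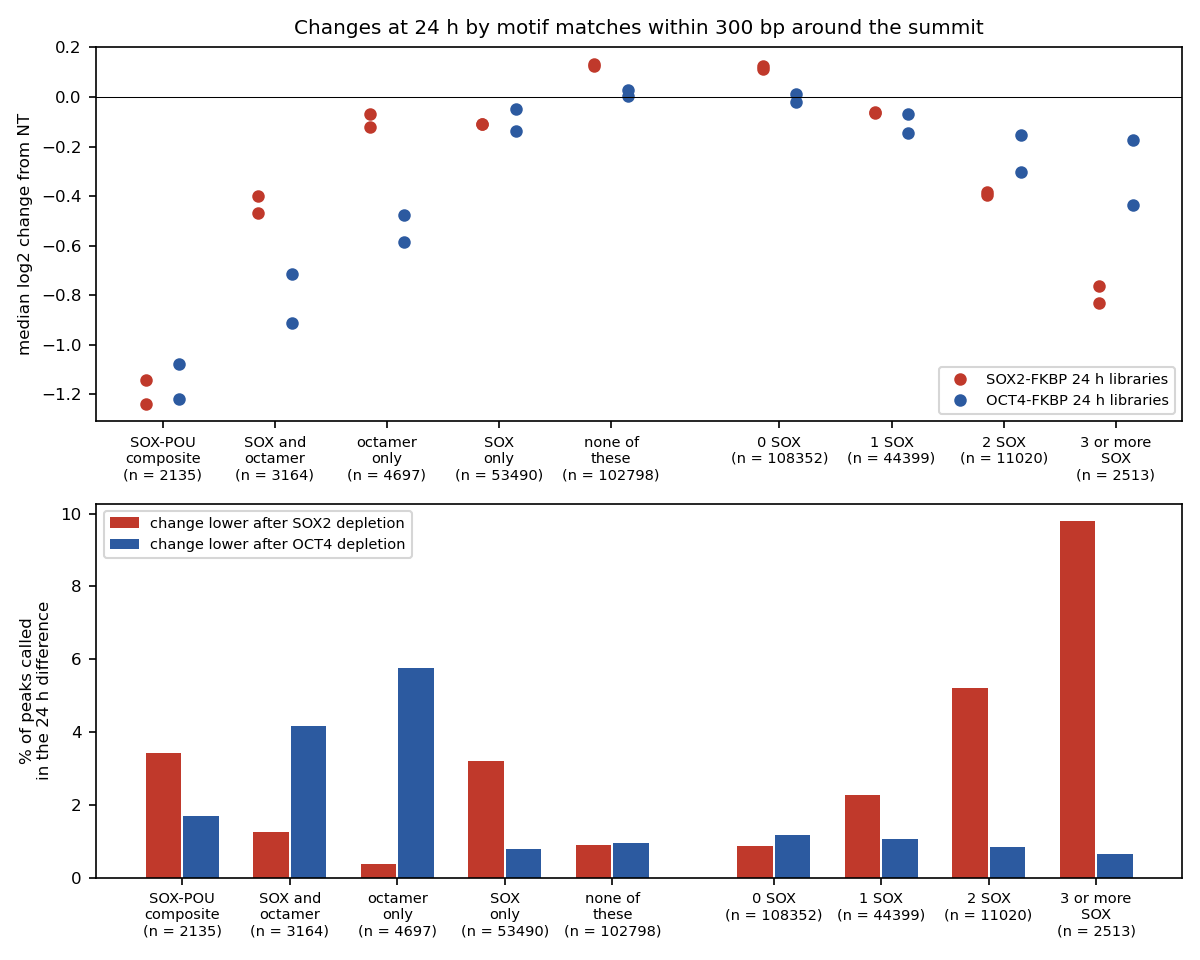
Upper panel, median log2 change from NT at 24 h for peaks grouped by SOX, octamer and composite letters and by the number of SOX matches, 1 point per 24 h library. Lower panel, share of each group called lower after SOX2 or after OCT4 depletion, from 0. Composite peaks fall to about -1.1 to -1.2 in all 4 libraries, and octamer peaks fall further in the OCT4-FKBP libraries.

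More SOX matches went with a larger share of SOX2-side calls. The share lower after SOX2 depletion was 0.88% in peaks with 0 SOX matches, 2.26% with 1, 5.21% with 2 and 9.79% with 3 or more. The share lower after OCT4 depletion moved the other way, 1.16%, 1.05%, 0.83% and 0.64%. The median 24 h change went from 0.14 to -0.81 on the log2 scale across these groups after SOX2 depletion and from 0.03 to -0.27 after OCT4 depletion. Groups of peaks share the same libraries, and the trend is given as a description.

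Letters of other factors were also counted in these windows. KLF letters (GGGNGTGG) stood in 14.3% of the peaks lower after SOX2, 23.8% of those lower after OCT4 depletion and 17.5% of all. ESRRB letters (AAGGTCA) stood in 18.2%, 16.2% and 10.6%, TEAD letters (GGAATG) in 28.8%, 23.3% and 18.8%, and ZIC letters (CCTGCTG) in 22.9%, 17.7% and 16.5%. TFAP2 letters (GCCNNNGGC) stood in 15.8%, 9.98% and 12.2% and GATA letters (AGATAA) in 16.3%, 10.1% and 10.3%, so both were more frequent on the SOX2 side than on the OCT4 side. CTCF letters (CNAGNGGGC) were less frequent on both sides, 2.49% and 3.87% against 6.66%. In the 1024 peaks gained after OCT4 depletion alone the TFAP2 share was 20.3% and the TEAD share 31.5%. Their SOX share was 59.9%, against 34.8% of all. CDX letters (TTTATGG) stood in 2.93% and ETS letters (CCGGAAGT) in 0.49% of them, against 2.59% and 1.23% of all. Over the whole peak their TFAP2 and TEAD shares were 32.2% and 49.1%. Those of the 1109 peaks lost after SOX2 depletion alone were 32.0% and 52.6%, and those of all tested peaks 25.7% and 38.5%. TFAP2C, TEAD4 and CDX2 are factors of the trophectoderm, and these letters do not tell which factor binds.

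Peaks at annotated gene starts rarely diverged. Of the 16652 peaks within 500 bp of a start, 0.47% were lower after SOX2 and 0.26% after OCT4 depletion. Their median 24 h change was 0.30 and 0.37 in the SOX2-FKBP libraries and 0.75 and 0.36 in the OCT4-FKBP libraries, the higher value standing in OCT4-FKBP replicate 1 alone. With start peaks included, 54.8% of the called peaks on the SOX2 side lay between genes, 37.4% of those on the OCT4 side and 37.9% of all tested peaks.

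Differences between the lines were also called at earlier times. In the peaks called at 24 h on the SOX2 side the median log2 difference of changes was -1.40 at 2 h and -2.31 at 24 h, and in those called on the OCT4 side it was 0.86 and 1.95. The lines already differed at 2 h at 1991 peaks (1.2%) on the SOX2 side and 623 (0.374%) on the OCT4 side, and at 6 h at 3135 (1.88%) and 1410 (0.847%). With the replicate pairs as a block the counts were 3152 and 1054 at 2 h, and 2192 on the OCT4 side at 6 h. The 2 h count on the SOX2 side was 1188 without OCT4-FKBP NT replicate 1. On the OCT4 side, leaving out SOX2-FKBP NT replicate 1, its replicate 2 or OCT4-FKBP NT replicate 2 gave 243, 213 and 324 at 2 h and 619, 677 and 727 at 6 h. All 3 comparisons use the same NT libraries, so their counts are set side by side and not compared by overlap. For the same reason, choosing peaks at 24 h also moves their medians at 2 and 6 h the same way, by an amount not measured here. In the peaks called at 24 h on the SOX2 side, the median change in SOX2-FKBP was -0.92 after 2 h, -1.14 after 6 h and -1.44 after 24 h, and in OCT4-FKBP 0.48, 0.59 and 0.91. In those called on the OCT4 side, SOX2-FKBP stayed at 0.19, 0.14 and 0.07 while OCT4-FKBP went from -0.66 to -0.96 and -1.93. The OCT4 line thus moved further from 6 to 24 h than from 2 to 6 h in peaks that were chosen on the NT and 24 h libraries.

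Whether the lines part between 2 and 24 h was tested in a contrast from which the NT level cancels, although the NT libraries still enter the estimate of the spread. The 24 h level was compared with the 2 h level within each line, and the difference of these changes was lower in SOX2-FKBP at 116 peaks (0.0697%) and lower in OCT4-FKBP at 255 (0.153%). With the replicate pairs as a block, these counts were 493 and 966. Without SOX2-FKBP 24 h replicate 1 they were 25 and 39, without its replicate 2 38 and 153, without OCT4-FKBP 24 h replicate 1 135 and 47, and without OCT4-FKBP NT replicate 2 135 and 490. The size of this set is therefore uncertain, and its balance turned without OCT4-FKBP 24 h replicate 1. Between 2 and 6 h no peak passed (0 of 166430 in both directions, 0%) by edgeR, and none by DESeq2. At an unadjusted p under 0.05, 3442 peaks did (2.07%), 1779 lower in SOX2-FKBP and 1663 lower in OCT4-FKBP.

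Both late sets, chosen on these values, moved mainly in the OCT4 line. In the 116 peaks the median change in OCT4-FKBP went from 0.18 over 0.89 to 2.16 at the 3 times, while SOX2-FKBP stayed between 0.25 and -0.11. In the 255 peaks OCT4-FKBP went from 0.49 to 0.06 and -1.58, while SOX2-FKBP stayed between -0.03 and -0.07. The choice of the 255 favours peaks with high OCT4-FKBP levels at 2 h, so the 0.49 is not read as a trait of them. At 6 h, a time outside the contrast, their median was 0.06. KLF letters stood in 33.3% and ESRRB letters in 21.6% of the 255, and octamers in 7.45%. In all peaks lower after OCT4 depletion at 24 h, which include 142 of the 255, the shares were 23.8%, 16.2% and 22.5%. Over all tested peaks they were 17.5%, 10.6% and 4.87%. SOX letters stood in 48.3% of the 116 peaks and 40.4% of the 255, against 34.8% of all tested peaks.

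**Figure D4:**
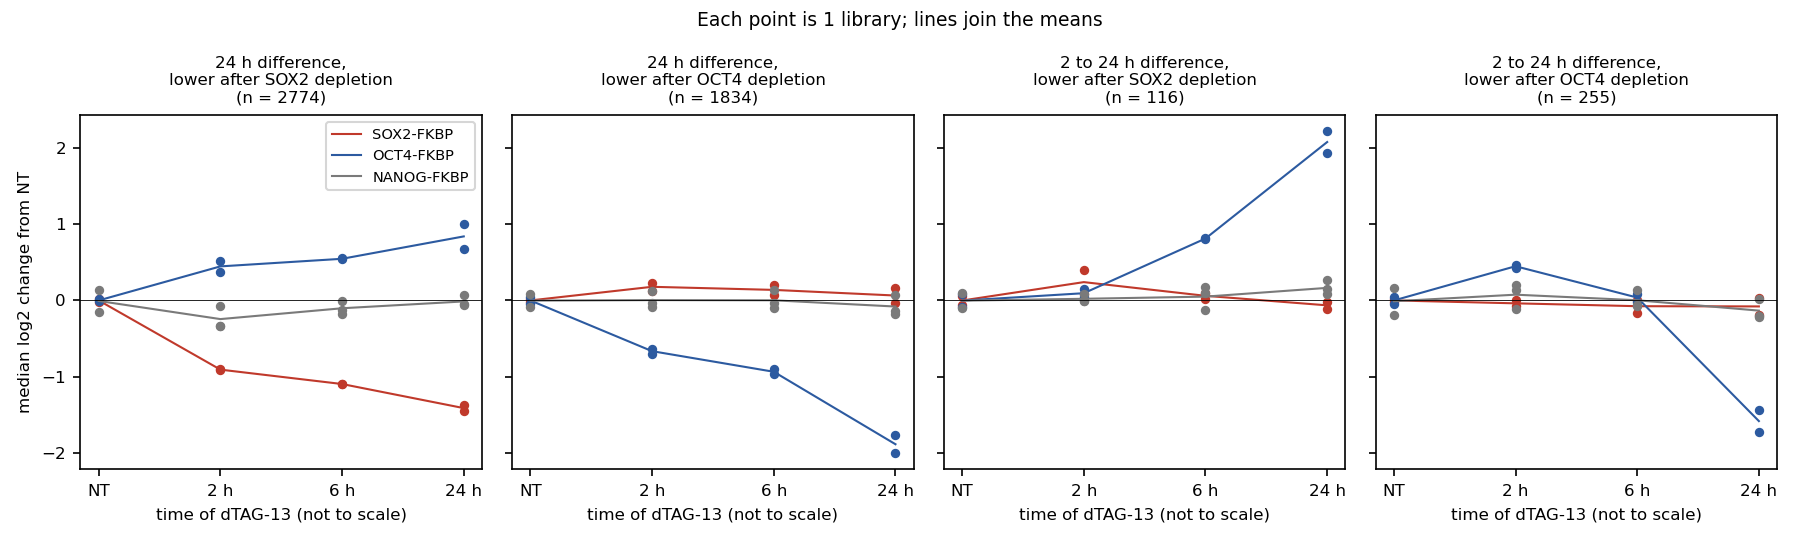
Median log2 change from NT (y axis) at NT, 2, 6 and 24 h (x axis, not to scale) in SOX2-FKBP, OCT4-FKBP and NANOG-FKBP, for the peaks called in the 24 h difference and in the 2 to 24 h difference, 1 point per library and lines through the means. In the late sets the SOX2-FKBP medians lie between -0.19 and 0.10, apart from 2 h replicate 1 at 0.40 in the set lower after SOX2 depletion, while the OCT4-FKBP libraries reach 1.93 and 2.22 or -1.72 and -1.44 at 24 h.

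Single loci show this course. The intergenic peak at chr5:127135824-127137122, 105 kb upstream of Tmem132c, had 14.0 and 11.2 counts in OCT4-FKBP NT cells. They were 43.2 and 23.6 after 2 h, 132 and 104 after 6 h and 448 and 355 after 24 h. In SOX2-FKBP it had 41.1 and 29.9 at NT and 57.3 and 41.5 at 24 h. The rise in OCT4-FKBP (log2 change 5.00) had no counterpart in SOX2-FKBP (0.44, not past the threshold), and the 2 to 24 h difference was -3.47 (standard error 0.44, edgeR adjusted p = 9.82e-05).

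The intronic peak of Plec, the gene of the cytoskeletal linker plectin, was higher at 2 h than at NT and fell by 24 h. At chr15:76186558-76187617, OCT4-FKBP counts were 210 and 178 before treatment, 355 and 312 after 2 h, 193 and 181 after 6 h and 26.1 and 30.9 after 24 h. SOX2-FKBP counts were 67.9 and 89.6 at NT, 105 and 98.8 at 2 h and 112 and 80.2 at 24 h. The fall stood in the OCT4 line alone (2 to 24 h difference 3.46, standard error 0.39, edgeR adjusted p = 8.23e-06). The NT level of this peak differed between the lines, which the within-line change removes.

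Of the 10 largest late differences, 5 in each direction, 3 kept their call in every alternative tried, those of Plec, Dlgap3 and the Tmem132c-side peak. At Limch1, a gene of an actomyosin regulator, the call (3.71) ended without either 24 h library of OCT4-FKBP (edgeR adjusted p = 0.141 and 0.0817) or SOX2-FKBP 24 h replicate 1 (0.0673), and with DESeq2 (adjusted p = 0.0955), and its counts in OCT4-FKBP were 34 at NT and 2 at 24 h. In an intron of Lama2, a laminin gene, counts rose from 6.24 and 4.79 to 69.6 and 72.6 in OCT4-FKBP and were 6.71 and 5.43 and then 4.86 and 5.53 in SOX2-FKBP. This late call (-3.47) ended without either SOX2-FKBP 24 h library (edgeR adjusted p = 0.127 and 0.0645). Upstream of Tcl1b2, in the Tcl1 gene cluster, the late call (2.94) ended without OCT4-FKBP 24 h replicate 1 (edgeR adjusted p = 0.0927) or SOX2-FKBP 24 h replicate 1 (0.0994). In an intron of Gm41031 (-3.48) the call ended without OCT4-FKBP 24 h replicate 2 (edgeR adjusted p = 0.52) or either SOX2-FKBP 24 h library (0.125 and 0.0815), and with total counts (0.0573) or totals outside the mitochondrial peaks (0.0505). Near Rpl37a (-3.45) it ended without the same libraries (edgeR adjusted p = 0.12, 0.0716 and 0.141), with loess offsets (0.0576) and with both totals (0.0545 and 0.0519). In an intron of Npepps (3.06) it ended without any 1 of the 4 libraries of 24 h (edgeR adjusted p between 0.0771 and 0.196) and with DESeq2 size factors (0.0556).

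Peaks that differed early did not all stay apart. The 1991 peaks lower on the SOX2 side at 2 h had median changes in SOX2-FKBP of -1.52, -1.80 and -2.17 at the 3 times. In OCT4-FKBP they stood above NT at 2 h (0.56) and at 6 h (0.36) and below it at 24 h (-0.49), and the 24 h libraries of that line were at -0.71 and -0.27. The choice of the 1991 favours peaks with high OCT4-FKBP levels at 2 h and low ones at NT. The 0.56, and the 0.36 through the shared NT libraries, are therefore not read as a trait of them. From 6 to 24 h, a change that uses no library of the 2 h call, the difference between the lines moved by 0.45 towards the OCT4-FKBP loss, against -0.02 over all tested peaks. The 623 peaks lower on the OCT4 side at 2 h moved less, by -0.20, with SOX2-FKBP medians of 0.26 at 2 h and -0.27 at 24 h.

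Around genes of naive pluripotency, divergence was mostly on the OCT4 side. Of 292 tested peaks whose nearest start is one of 22 naive genes within 50 kb, 16 (5.48%) were lower after OCT4 depletion and 2 (0.68%) lower after SOX2 depletion, against 1.1% and 1.3% of the 134002 peaks of all genes. The median 24 h change of the 292 peaks was -0.32 after SOX2 and -0.69 after OCT4 depletion, against 0.10 and 0.01. The count of 16 fell to 7 without OCT4-FKBP 24 h replicate 1, to 9 and 10 without either NT library of SOX2-FKBP and to 10 without SOX2-FKBP 24 h replicate 1, and it was 11 with DESeq2 and 20 with total counts. The count of 2 was 1 or 2 with a library left out. Within the lines, 52 of these peaks were lost after SOX2 and 113 after OCT4 depletion. The 16 peaks belong to 8 genes, Esrrb, Tfcp2l1, Tdgf1, Dppa3, Nanog, Fgf4, Zfp42 and Fbxo15.

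Esrrb, the gene of an orphan nuclear receptor of the naive network, held 6 of them. The one with the lowest p, 27.2 kb downstream of the start at chr12:86497059-86497496, had 145 and 166 counts in SOX2-FKBP NT libraries and 130 and 120 at 24 h. In OCT4-FKBP it had 288 and 211 before treatment, 255 and 254 after 2 h, 220 and 225 after 6 h and 21.7 and 32.4 after 24 h. The loss came after 6 h and in OCT4-FKBP alone (24 h difference 2.89, standard error 0.41, edgeR adjusted p = 2.2e-05, and 2 to 24 h difference 2.58, adjusted p = 0.00195). A second Esrrb peak, 34.4 kb downstream of the start, kept 478 and 500 counts at 2 h without OCT4 and fell to 69.6 and 150 at 24 h. The peak over the Esrrb start did not pass (difference -0.34), with changes of 0.03 and 0.36.

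The upstream peak of Dppa3, a germ cell and naive state gene, fell early instead. This peak with 2 octamers, at chr6:122624371-122625133, went from 262 and 279 to 51.4 and 58.5 at 2 h and 39.1 and 40.2 at 24 h in OCT4-FKBP. In SOX2-FKBP it went from 196 and 182 to 116 and 75.5 at 2 h and 184 and 106 at 24 h, where the NT and 24 h libraries overlapped (24 h difference 2.38, standard error 0.39, edgeR adjusted p = 0.000186). Peaks near Tfcp2l1, a transcription factor gene of the naive network, fell in both lines at the upstream site (-1.38 after SOX2 and -2.98 after OCT4 depletion) and past the threshold in OCT4-FKBP alone at 2 intronic sites (-2.42 and -2.89). The peak of 2313 bp at an annotated start of Tdgf1, the gene of the Nodal co-receptor Cripto, had 653 and 578 counts in OCT4-FKBP NT libraries and 151 and 195 at 24 h, against 685 and 673 and then 639 and 524 in SOX2-FKBP.

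Pou5f1 and Sall4 stood on the other side. The peak 15.5 kb upstream of Pou5f1, at chr17:35489556-35491144 with 3 SOX matches, fell from 181 and 171 to 39.8 and 48.9 in SOX2-FKBP. In OCT4-FKBP it went from 279 and 269 to 423 and 374 at 2 h and to 168 and 199 at 24 h. The difference at 24 h was -1.41 (standard error 0.33, edgeR adjusted p = 0.01), and the peak also fell in NANOG-FKBP (-1.35). The peak 2.26 kb upstream of Sall4, a zinc finger gene of pluripotent cells, fell from 72.1 and 67.8 to 17.5 and 10.1 in SOX2-FKBP and went from 77.2 and 61.7 to 72.5 and 52.5 in OCT4-FKBP (difference -2.20, standard error 0.50, edgeR adjusted p = 0.00746). Of the start peaks of the naive genes 21 were tested, and 1, that of Tdgf1, was called in the difference.

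**Figure D5:**
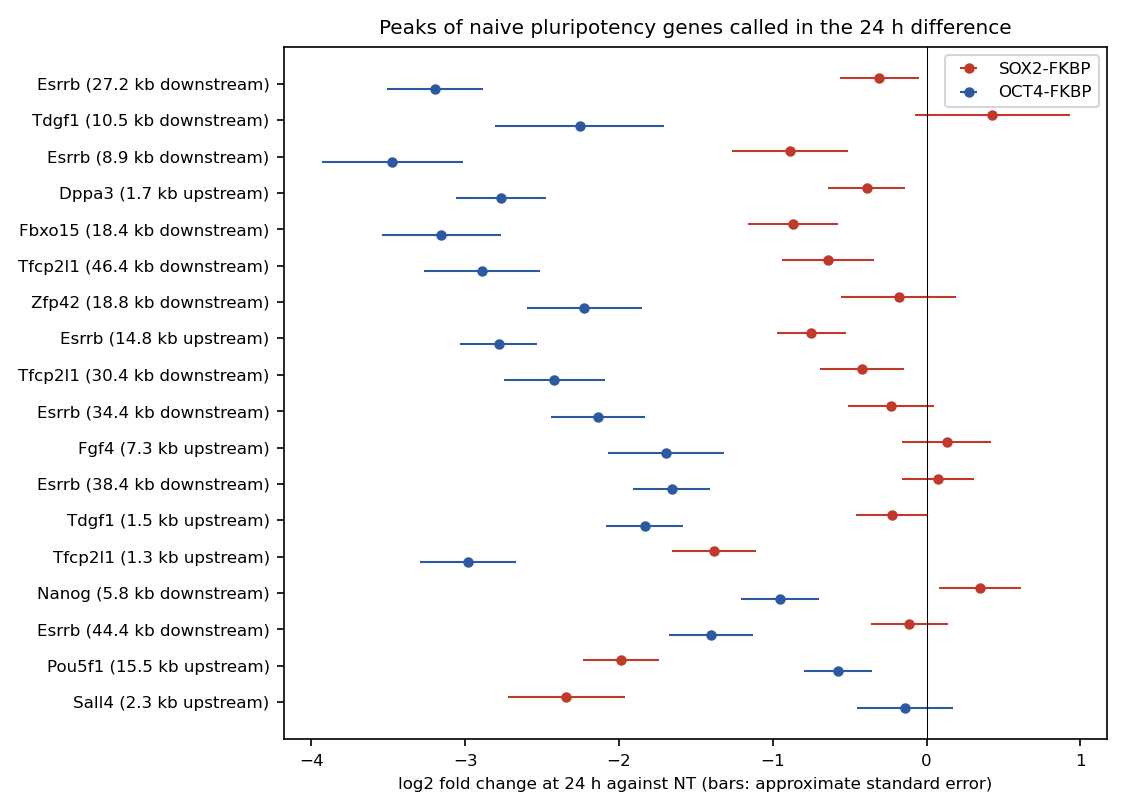
Log2 fold change at 24 h against NT with its approximate standard error for the 18 called peaks of naive pluripotency genes, in SOX2-FKBP and OCT4-FKBP, each labelled with its distance to the gene start. At 16 peaks the OCT4-FKBP point lies to the left of the SOX2-FKBP point, and at the peaks upstream of Pou5f1 and Sall4 to the right.

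Lists of other lineages held few called peaks, to be read against the same 1.3% and 1.1% of the peaks of all genes. Of 185 peaks near trophectoderm genes, 4 (2.16%) were lower on the SOX2 side and 2 (1.08%) on the OCT4 side, and with a library left out 1 to 3 and 2 to 5. Tfap2c, a trophectoderm and germ cell factor, had 1 of each. Its downstream peak at 26.4 kb fell from 366 and 366 to 134 and 101 in SOX2-FKBP and from 496 and 411 to 20.3 and 29.3 in OCT4-FKBP (difference 2.55, edgeR adjusted p = 0.00138). Its upstream peak at 28.5 kb fell from 35.2 and 40.7 to 12.6 and 17.5 in SOX2-FKBP and had 13.3 and 20.7 and then 21.7 and 34.0 in OCT4-FKBP (difference -1.98, edgeR adjusted p = 0.0373). Near Krt19, a keratin of simple epithelia, a peak 8.71 kb upstream rose from 9.35 and 13.3 to 75.4 and 75.7 in OCT4-FKBP and had 32.7 and 27.1 and then 33.0 and 24.9 in SOX2-FKBP (difference -2.76, edgeR adjusted p = 0.000245). An intronic Tead4 peak fell in OCT4-FKBP from 235 and 335 to 92.8 and 102 and had 145 and 155 and then 192 and 190 in SOX2-FKBP (difference 1.90).

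The list of epithelial junctions and keratins had 6 of 182 peaks (3.30%) on the SOX2 side and 2 (1.1%) on the OCT4 side, and with a library left out 3 to 4 and 0 to 1. They include 2 peaks upstream of Dsp, the desmoplakin gene, of which the larger fell from 260 and 247 to 33.0 and 24.9 in SOX2-FKBP and had 175 and 149 and then 149 and 165 in OCT4-FKBP (difference -3.08, edgeR adjusted p = 7.88e-05). Both called peaks of Cldn4, a tight junction gene, stood on the OCT4 side (differences 1.19 and 1.34). Neural genes had 3 of 84 peaks (3.57%) on the SOX2 side, 1 to 4 with a library left out, and 1 (1.19%) on the OCT4 side. The peak 12.4 kb upstream of Lhx2, a LIM homeobox gene, rose in OCT4-FKBP from 8.57 and 13.3 to 116 and 190 and had 21.0 and 14.9 and then 18.4 and 21.2 in SOX2-FKBP (difference -3.64, edgeR adjusted p = 0.00111).

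Primitive endoderm genes had 2 of 144 peaks (1.39%) on each side. A Lamb1 intron, in a laminin gene, rose from 9.35 and 8.51 to 58.0 and 60.2 in OCT4-FKBP and went from 39.4 and 44.8 to 21.4 and 14.8 in SOX2-FKBP (difference -3.93, edgeR adjusted p = 0.000208). A peak 39.7 kb upstream of Dab2, an endocytic adaptor gene, also stood on the SOX2 side (-3.24), and 2 peaks upstream of Sox7 stood on the OCT4 side (2.62 and 1.49). Formative and primed genes had 1 of 162 peaks (0.62%) on the SOX2 side, near Grhl2, and 4 (2.47%, 1 to 4 with a library left out) on the OCT4 side, near Etv4, Etv5 and Lef1. The smaller Etv5 peak had 24 raw counts over the OCT4-FKBP NT libraries and 0 at 24 h, so its level was at least 3.38-fold lower, taking a floor of 3 counts over the group. Mesendoderm genes had 1 (0.93%) and 2 (1.85%) of 108 peaks, near Sp5 on one side and Mesp1 and Fgf4 on the other.

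Genes of the Hippo pathway had 4 of 167 peaks (2.40%, 1 to 3 peaks with a library left out) called, on the OCT4 side, in introns of Lats2, Tead3 (2) and Vgll4, and genes of the POU family had 1 (1.12%) and 3 (3.37%) of 89, the 3 in introns of Pou2f3. The largest Pou2f3 difference was 3.22 (edgeR adjusted p = 0.000132), with OCT4-FKBP counts falling from 105 and 130 to 4.35 and 9.27. Genes of the SOX family had 2 and 2 of 90 (2.22%). The peak in Sox5, a SoxD gene, fell from 55.3 and 58.3 to 11.7 and 15.7 in SOX2-FKBP and rose from 99.8 and 169 to 273 and 238 in OCT4-FKBP (difference -2.95, edgeR adjusted p = 1.32e-05). The peak in Sox13 fell in both lines and more after SOX2 depletion (-2.63 against -0.86). The list of AP-1 and immediate early genes had 2 of 101 (1.98%), both near Fosl2, and that of fibroblast genes 1 of 61 (1.64%), near Col3a1, all on the SOX2 side. These counts of 6 peaks or fewer are given as values, and no list was tested against the other genes.

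The start peaks of marker genes were read as a check of the cell type. At NT the 21 tested start peaks of naive genes had median levels of 155 normalized counts per kb in SOX2-FKBP and 193 in OCT4-FKBP, and 8 start peaks of fibroblast genes 33.8 and 47.3. Summed over the 23 trophectoderm starts the level was 1423 and 1449 in SOX2-FKBP NT libraries and 1697 and 1753 at 24 h, and 2522 and 2268 in OCT4-FKBP NT libraries and 3112 and 2296 at 24 h. In OCT4-FKBP replicate 1 the sums at 24 h were the higher ones of the pair in all 5 marker lists, the naive list included (5006 against 3893). The part of this library in the results above is given by the values without it. 

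The NANOG-FKBP line gave libraries at the same OCRs that do not enter the difference between the lines. They share its filter and its estimate of the spread, so calls in the 2 comparisons are not independent. There, 3745 peaks (2.25%) were lost and 479 (0.288%) gained at 24 h, in 3 libraries against 2 at NT (912 gained with the replicate block). Of the 2774 peaks on the SOX2 side 201 (7.25%) were lost and 74 (2.67%) gained without NANOG, and of the 1834 on the OCT4 side 148 (8.07%) were lost and 7 (0.38%) gained. In both directions losses were more frequent than among all tested peaks, and gains were so on the SOX2 side. The 2 sets also had higher levels, with medians of 38.9 and 61.9 normalized counts against 24.9 over all tested peaks. Low peaks have the larger error, so these shares of calls are not compared at equal level. The median NANOG-FKBP change was close to 0 in both sets (0.07 and -0.09). NANOG-FKBP 24 h replicate 2 held 2767190 counts, 17% of them mitochondrial, against 2.72% and 3.47% in the other 24 h libraries of the line.

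The divergence was not limited to chromosomes 6 and 8, whose shares of the counts differ between the lines. Copy number was not measured here. On chromosome 6, 1.82% of the peaks were lower on the SOX2 side and 0.97% on the OCT4 side, and on chromosome 8 1.47% and 1.01%, with median differences of -0.03 and 0.04. Without both chromosomes 2453 and 1641 peaks remained.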

How the data were processed

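ATACseq was made in SOX2-FKBP, OCT4-FKBP and NANOG-FKBP mouse embryonic stem cells, NT and after dTAG-13. The authors deposited 1 table of raw counts of fragments per peak over 184964 peaks. Reads were aligned to mm10 and peaks called with MACS2, and the submitters' processing notes name BWA 0.7.17-r1188, SAMtools 1.10 and Picard 2.12.0. The deposited counts are not normalized, so depth and composition differ between libraries (6378962 to 17575631 counts in the 8 libraries compared), and low peaks have the larger error. Count columns of 31 samples were read. Of these, 27 libraries entered the fit, 4 count columns of SOX2-FKBP at shorter times did not, and 14 further samples were not analysed here.

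A peak was kept when over 6 libraries held over 10 counts (166430 peaks), and 18534 were not tested. Counts were fitted with edgeR 4.0.16 in R 4.3.3 (TMM factors, quasi-likelihood test, Benjamini-Hochberg adjustment, threshold 0.05), with 1 term per line and time. The comparison was the difference of the within-line changes, and negative values mean a lower change after SOX2 depletion. Standard errors are approximate, taken from the fold change and its F statistic. The log2 change of 1 library used a pseudocount of 1. Tables and drawings used Python 3.11.15, pandas 2.3.3, numpy 2.4.6 and matplotlib 3.10.9. The fit was tested on simulated data.

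Samples were grouped by the labels. Replicates with the same number deviated together within each line at the 46384 peaks whose mean reached 50 normalized counts (correlations 0.161 to 0.340 in SOX2-FKBP and 0.328 to 0.601 in OCT4-FKBP), and more weakly over all tested peaks (0.0766 to 0.173 and 0.130 to 0.334). They were treated as pairs in an alternative, since the labels do not say what a number marks.

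The members, gene lists and motifs were chosen with earlier results of these data known. Named peaks were the 10 with the largest 24 h difference in each direction past the threshold, with a group mean of 50 or more and with both replicates of one line on the same side of both of the other. The same was done for 5 in each direction for the 2 to 24 h difference and for peaks lost in one line and gained in the other. Of these peaks, 1 is counted in totals and ranges but not reported here. For listed genes the start peak and the peaks within 50 kb that passed were read. Genes and positions came from GENCODE vM21, the sequences from the mm10 reference of NCBI. Motif letters were searched on both strands in 300 bp around the summit, where 146 tested peaks had no sequence. Alternatives were DESeq2 1.42.0, other scalings (total counts, loess offsets from limma 3.58.1), other filters, fewer libraries, a replicate block with and without GC offsets, and each replicate left out. Intervals and floors cover counting error only, since PCR copies are not independent molecules.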

Additional observations from a re-analysis of the deposited data

Results flagged for a closer look

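A test of the difference between the 2 lines singled out the following. At 24 h the change was lower after SOX2 depletion at 2774 peaks and lower after OCT4 depletion at 1834. The counts were 1991 and 623 at 2 h, 3135 and 1410 at 6 h, and 116 and 255 from 2 to 24 h.

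Among peaks lower after SOX2 depletion at 24 h, the log2 differences were -6.50 near Fth1, -6.16 near Pet2, -6.08 in Clstn2, -5.88 near Hnmt and -5.67 near 1700015G11Rik. They were -5.27 in 1700025G04Rik, -4.91 near Aga, -4.89 in Fzd8 and -4.87 near Nuak1. Of these, the peaks near Hnmt, in 1700025G04Rik, near Aga and in Fzd8 were also among the 5 largest of those lost after SOX2 and gained after OCT4 depletion.

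Among peaks lower after OCT4 depletion, they were 4.66 in Sptbn1, 4.11 in Dlgap3, 4.08 in Agbl4, 4.05 in Hmgb3 and also in Lats2, and 3.77 near Tmem132c. They were 3.63 in Gm14661 near Sox3, 3.61 in Gm36660 near Zfp36l1, 3.58 near Prokr1 and 3.57 in 1500009C09Rik. The peaks gained after SOX2 and lost after OCT4 depletion had 3.26 at the intergenic peak of chromosome 5, 2.98 in Upp2, 2.93 in Tmem108, 2.85 in Arrb1 and 2.84 in Ptpn21.

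From 2 to 24 h the differences were -3.48 in Gm41031, -3.47 upstream of Tmem132c and in Lama2, and -3.45 near Rpl37a. In the other direction they were 3.71 in Limch1, 3.46 in Plec, 3.06 in Npepps and 2.94 near Tcl1b2 and in Dlgap3. Both replicates of one line lay on the same side of both of the other in each named peak, which was a condition of naming it.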

How the results depend on the processing

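The 24 h difference rests on 2 libraries per group. In what follows lower means a lower change after SOX2 depletion and higher a lower change after OCT4 depletion. No value of a named peak changed sign in any alternative tried, but the balance of lower to higher turned at 24 h with total counts (1889 to 1973), with totals outside mitochondrial peaks (2194 to 2212) and with at least 10 counts in every library, and from 2 to 24 h without OCT4-FKBP 24 h replicate 1 (135 to 47). That of losses to gains after OCT4 depletion turned with DESeq2 size factors in edgeR (19374 to 21014) and with DESeq2 (15634 to 17242). The 40 values of named peaks gave 703 alternative values, of which 662 stayed past the threshold and 41 did not, and the replicate block ended none of their calls. Without OCT4-FKBP 24 h replicate 2 the call near 1700015G11Rik ended (-5.26, edgeR adjusted p = 0.0626). The 24 counts by gene list gave 480 alternative values, of which 185 moved by over 1.5 times, the naive count on the OCT4 side among them (7 to 21). With DESeq2 size factors within edgeR, loess offsets, no filter or the 8 libraries alone, the 24 h counts stayed within 1.5 times. Depth limits the lost peaks, such as those of Agbl4 and Hmgb3 with 1 count left over both libraries.

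With DESeq2 the higher counts were 1039 at 24 h and 411 at 2 h, the gains 4914 after SOX2 and 231 after NANOG depletion. With at least 10 counts in every library (33328 peaks) the 24 h counts were 614 lower and 1050 higher, those at 2 h 506 and 227, those at 6 h 926 and 515, and 35 were lower from 2 to 24 h. Losses and gains there were 5781 and 1464 after SOX2, 9167 and 6872 after OCT4 and 668 and 77 after NANOG depletion. With the 16 SOX2-FKBP and OCT4-FKBP libraries alone, 209 were lower and 768 higher from 2 to 24 h. With total counts 65 were lower from 2 to 24 h, and 255 were gained after NANOG depletion.

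With the replicate block the higher count at 24 h was 2930, at 6 h 2192, the 2 h counts 3152 lower and 1054 higher, the 2 to 24 h counts 493 and 966 and the gains after NANOG depletion 912. With the block and GC offsets the 24 h counts were 4169 and 2781, the 2 h counts 3577 and 1040, the 2 to 24 h counts 454 and 931, the lower count at 6 h 4910 and the NANOG gains 986. The block left the other counts over all peaks within 1.5 times (among them 3969 lower at 24 h, 4481 lower at 6 h and 11637 gains after SOX2 depletion). Over the whole peak the SOX share was 85.9% of lower, 67.0% of higher and 61.8% of all peaks, the octamer share 7.07%, 32.6% and 9.70% and the composite share 5.05%, 3.71% and 2.57%.

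With 1 replicate left out, the 24 h counts ranged over 1386 to 2823 lower and 717 to 1662 higher. The 2 h counts ranged over 1188 to 2401 and 213 to 678, the 6 h counts over 2163 to 3545 and 619 to 1484, and the 2 to 24 h counts over 25 to 143 and 39 to 490. Losses and gains ranged over 12531 to 19395 and 2511 to 8704 after SOX2, 12184 to 21436 and 8772 to 17570 after OCT4 and 3584 to 4013 and 399 to 560 after NANOG depletion. Between 2 and 6 h the counts stayed at 0 to 0. The causes of these shifts were not tested.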
